A study of Mus musculus with 4 samples.

Results

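The T cell receptor complex and its proximal signalling proteins were described at the transcript level in mouse T cells cultured with cytokines for a Tc1 or a Tc9 state. The 37 genes named for this module were the CD3 chains and CD8 coreceptor, the proximal kinases and adaptors, the protein kinase C and NFAT branches, costimulatory receptors and negative regulators. Of these, 36 were measured among the 19505 genes of the arrays, each by the probe set of highest mean over the 4 arrays, and Lck was not analysed here. The design held 2 arrays from cells labelled Tc1 and 2 from cells labelled Tc9, numbered 1 and 2 in each group. The stated purpose was to compare gene expression between the 2 cell types. Tc1 cells are the interferon-gamma-producing form of CD8 T cells, and Tc9 cells the form marked by interleukin 9. The sources used here do not give the cytokines, culture times, mouse strain or origin of the cells. Nothing says that the replicates were separate cultures or animals, so the p-values measure the spread between these samples, which may be technical.

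A T cell receptor has no signalling tail of its own and depends on the CD3 chains and the zeta chain, whose cytoplasmic tails are phosphorylated when the receptor meets peptide on an MHC molecule. On CD8 T cells the CD8 coreceptor binds MHC class I and brings a Src-family kinase to the complex. ZAP70 then docks on the phosphorylated tails and phosphorylates the scaffold LAT and the adaptor SLP-76, on which phospholipase C gamma, exchange factors and further adaptors assemble, and calcium, protein kinase C and RAS signals carry the message to NFAT, NF-kappaB and AP-1. Phosphatases, the kinase CSK and ubiquitin ligases restrain these steps.

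Median deposited intensity over all probe sets was 37.15 to 37.88 on the arrays numbered 1 and 57.12 to 57.32 on those numbered 2, so the numbers mark 2 sets of arrays at different overall levels, each holding 1 Tc1 and 1 Tc9 array. Levels are therefore given as quantile normalized intensities, in arbitrary units. After that step same-numbered arrays still deviated together from their group means (r = 0.729 across 19505 genes, which are not independent replicates). For this reason each change is given for the pair numbered 1 and the pair numbered 2 as well, and with the number as a block.

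Nearly all transcripts of this module gave clear signal in both cell types, and the widest difference between them was 1.73-fold. Of the 36 members, 34 lay above the control limit, the 95th percentile of the negative control probe sets of an array, on all 4 arrays, against 32.6% of all genes. In these bulk cultures fewer cells of a type and less RNA per cell cannot be told apart. By limma, 0 of the 36 members passed an adjusted p of 0.05, against 0.564% of all genes. At an unadjusted p under 0.05, 7 members were higher in Tc9 (2.94% of all genes were) and 0 were lower (2.34%). Of the 6354 genes above the control limit on all arrays, 342 were higher and 267 lower at that p. The members' log2 changes, all on the scale of log2(intensity + 16) and Tc9 minus Tc1, ran from -0.34 for Txk to 0.79 for Plcg1, with a median of 0.07 beside -0.003 over all genes. The median absolute change was 0.18 over the members, 0.11 over all genes and 0.14 over the 6354 genes above the control limit on all arrays. For 33 of the 36 the 95% interval of the fit lay within a 2-fold change either way, as it did for 92% of all genes; the intervals of Plcg1, Rasgrp1 and Nfatc2 reached past 2-fold. A missed threshold does not show that a gene was equal in Tc1 and Tc9.

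**Figure D1:**
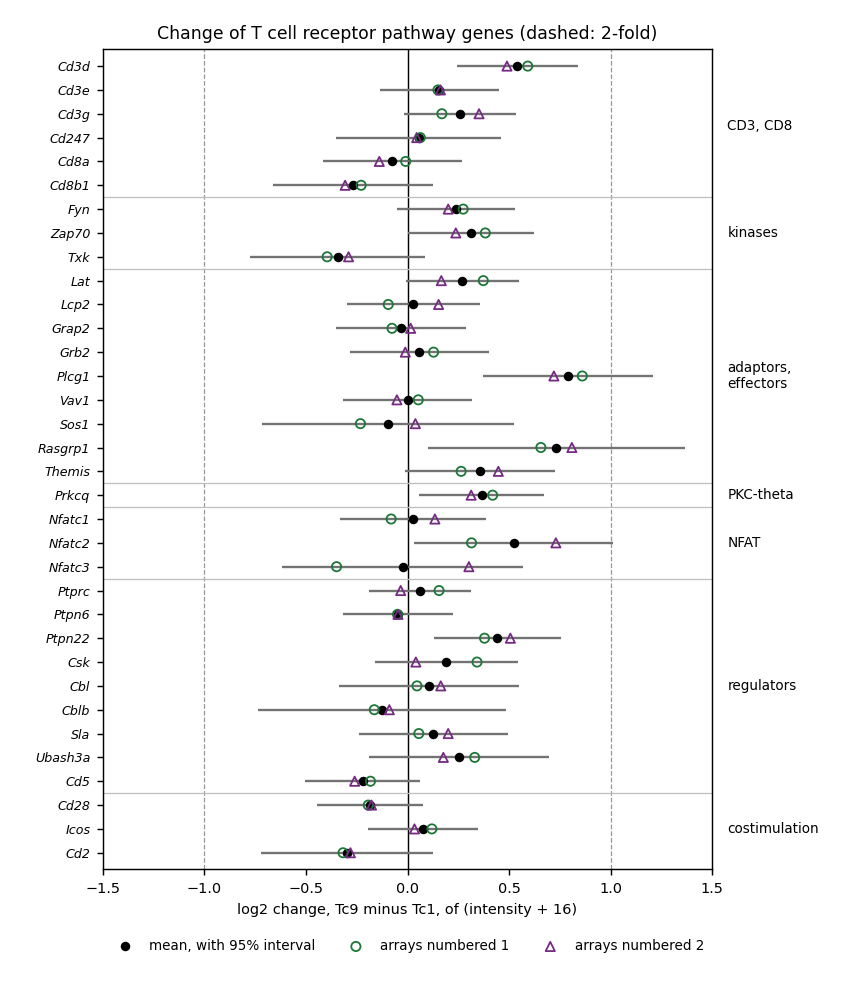
Change of 34 of the 36 measured members, Tc9 minus Tc1, in log2 units of intensity + 16. Black points are means with the 95% interval of the limma fit (n = 2 arrays a group), open circles and triangles are the pairs numbered 1 and 2, and dashed lines mark a 2-fold change. Plcg1 (0.79) and Rasgrp1 (0.73) lie farthest right and Txk (-0.34) farthest left.

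With the number as a block, 14 members passed as higher in Tc9 (6.34% of all genes) and 4 as lower (7.37%). Those higher were Cd3d, Cd3e, Cd3g, Fyn, Zap70, Lat, Plcg1, Rasgrp1, Themis, Prkcq, Nfatc2, Ptpn22, Csk and Ubash3a, and those lower were Cd8b1, Txk, Cd5 and Cd28. The block fit had 1 residual degree of freedom and gave all genes of like intensity 1 common spread, so bright genes passed more readily. Among the 6354 genes above the control limit on all arrays, 13.1% passed as higher and 15.9% as lower. Without the intensity trend the block passed 5 members, Plcg1, Rasgrp1, Cd3d, Ptpn22 and Nfatc2, all higher (3.9% of all genes), and 0 lower (3.41%).

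Both Tc9 arrays lay above both Tc1 arrays for 12 members (14% of all genes and 17.4% of those above the control limit on all arrays) and below both for 5 (15.1% and 20%). That separation depended on the scaling. With the values as deposited 1 member, Plcg1, was apart, and with median centring 9 were, of which 7 were among the 17. At least 1.5-fold differences in the same direction in both pairs were found for Plcg1 and Rasgrp1 (1.48% of all genes and 2.31% of those above the control limit were higher by this rule) and for 0 members in the other direction (0.969% and 1.23%).

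**Figure D2:**
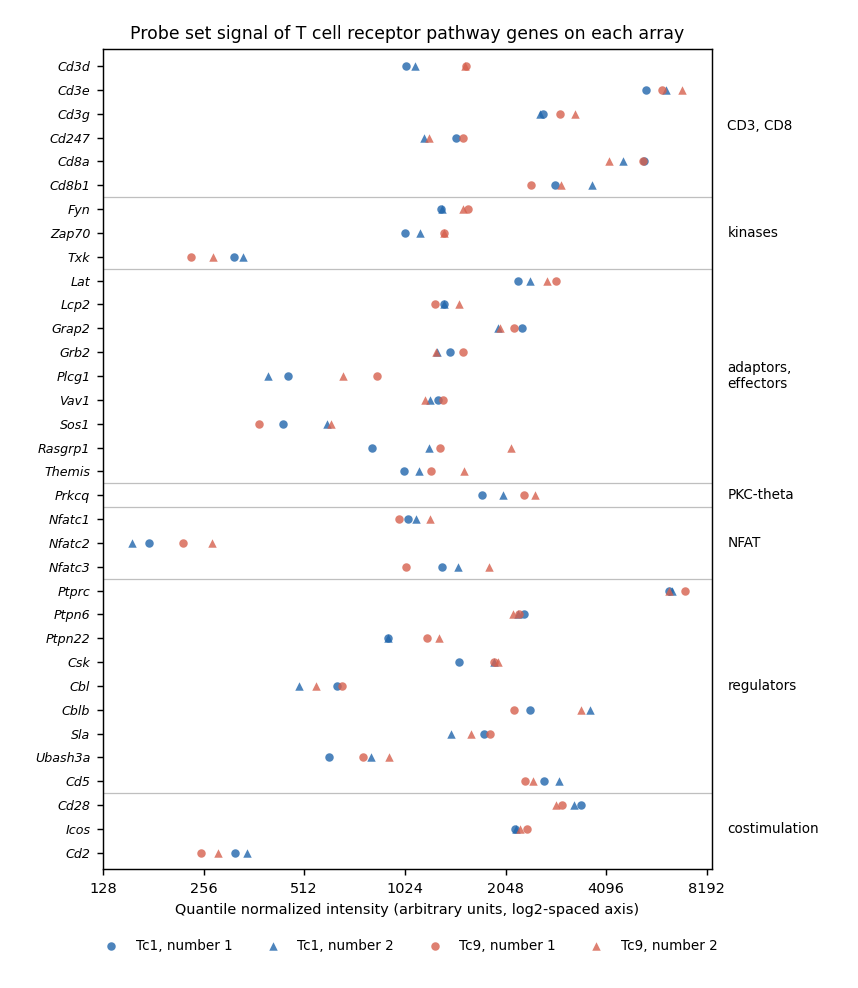
Quantile normalized intensity of 34 of the 36 measured members on each array, on a log2-spaced axis. Blue marks are Tc1 and red marks Tc9, circles are arrays numbered 1 and triangles arrays numbered 2; the groups are apart for Plcg1, Cd3d, Ptpn22 and Nfatc2 and intermixed for Cd3e, Cd247, Cd8a and most regulators. Positions of different genes cannot be ranked against each other, because each probe set has its own response.

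Plcg1 and Rasgrp1 had the widest differences of the list. Plcg1, phospholipase C gamma 1, which makes the messengers that release calcium and activate protein kinase C and RASGRP1, had signals of 458 and 399 in Tc1 and of 844 and 668 in Tc9. The higher Tc1 signal lay well below the lower Tc9 signal. The log2 change was 0.79 ± 0.18 (SE), or 1.73-fold (95% interval 1.29 to 2.31; limma adjusted p = 0.208, with the block 1.45e-16), with 0.86 and 0.72 in the pairs. Without any 1 array the change of Plcg1 lay between 0.62 and 0.96. It was lowest without the Tc9 array numbered 1 and highest without the Tc9 array numbered 2. Rasgrp1, the exchange factor that loads RAS in T cells, had signals of 819 and 1209 in Tc1 and of 1300.2 and 2131 in Tc9. Its groups did not overlap, but the arrays numbered 2 were higher in both cell types and the lower Tc9 array stood close above the higher Tc1 array. The change was 0.73 ± 0.27, or 1.66-fold (1.07 to 2.58; adjusted p = 0.746 by limma, with the block 5.28e-25), with 0.66 and 0.81 in the pairs. The change of Rasgrp1 was 1.016 without the Tc1 array numbered 2 and 1.075 without the Tc9 array numbered 1. Leaving out the Tc1 array numbered 1 gave 0.45, and leaving out the Tc9 array numbered 2 gave 0.38. Each of these fits had no term for the number and left the numbers unequal between the groups. The log2 difference of Rasgrp1 between the arrays numbered 2 and those numbered 1 was 0.63. These 4 values therefore mix the difference between numbers with that between cell types.

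The 250 bases before the annotated start of Plcg1 and Rasgrp1 are shown with those of Cd3d and Cd3g, 2 CD3 chains that also lay higher in Tc9, and of Cd5, a member that lay lower. The 5 were picked with the genes' values known. They come from RefSeq on GRCm38.p6, 5′ to 3′ on the gene's strand: Plcg1 at chr2:160731060-160731309 (+), Rasgrp1 at chr2:117342878-117343127 (-), Cd3d at chr9:44981536-44981785 (+), Cd3g at chr9:44980432-44980681 (-) and Cd5 at chr19:10738975-10739224 (-). Capitals mark exact matches, on either strand, to 6 short strings. The string searched for ETS factors was CCGGAAG, while the one for RUNX factors was TGTGGT. E proteins were represented by their E-box string CAGGTG, and the string for NFAT factors was TGGAAA. The GC box was searched for as GGGCGG, and the TATA box of core promoters as TATAAA.
Plcg1: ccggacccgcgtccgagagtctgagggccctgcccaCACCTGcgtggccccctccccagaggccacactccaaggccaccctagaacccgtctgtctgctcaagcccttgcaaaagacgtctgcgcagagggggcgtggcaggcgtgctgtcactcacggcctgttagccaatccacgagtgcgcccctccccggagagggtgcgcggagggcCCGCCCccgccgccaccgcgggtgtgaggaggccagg
Rasgrp1: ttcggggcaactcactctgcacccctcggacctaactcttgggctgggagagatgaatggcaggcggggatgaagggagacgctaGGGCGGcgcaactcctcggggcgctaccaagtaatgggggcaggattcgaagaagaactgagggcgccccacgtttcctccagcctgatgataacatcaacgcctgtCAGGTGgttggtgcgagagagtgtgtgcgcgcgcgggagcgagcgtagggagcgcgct
Cd3d: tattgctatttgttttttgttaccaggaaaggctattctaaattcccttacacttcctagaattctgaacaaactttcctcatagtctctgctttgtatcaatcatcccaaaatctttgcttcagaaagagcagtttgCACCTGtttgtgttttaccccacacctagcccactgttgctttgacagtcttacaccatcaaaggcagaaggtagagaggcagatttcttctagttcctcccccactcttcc
Cd3g: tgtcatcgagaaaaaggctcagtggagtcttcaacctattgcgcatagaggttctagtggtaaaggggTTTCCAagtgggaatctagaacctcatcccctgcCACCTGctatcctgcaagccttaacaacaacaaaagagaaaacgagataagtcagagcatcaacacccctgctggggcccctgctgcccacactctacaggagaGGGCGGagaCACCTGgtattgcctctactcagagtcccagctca
Cd5: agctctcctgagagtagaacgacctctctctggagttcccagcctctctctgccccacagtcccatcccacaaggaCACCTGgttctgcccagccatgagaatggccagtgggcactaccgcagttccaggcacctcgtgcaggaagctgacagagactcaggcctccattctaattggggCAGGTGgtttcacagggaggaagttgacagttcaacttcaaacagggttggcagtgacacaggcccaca
The CAGGTG string, which E proteins can bind, was present in all 5 of these windows, once each in Plcg1, Rasgrp1 and Cd3d and 2 times each in Cd3g and Cd5. Plcg1, Rasgrp1 and Cd3g also held a GC box string and Cd3g the NFAT string, and no matches overlapped. Cd3d and Cd3g run in opposite directions from starts 1355 bases apart. RefSeq windows were searched for 29 of the measured members, 39 windows in all, some of them overlapping alternative starts of 1 gene. Windows on 1 chromosome were left out of this search, for the members and for all genes alike. CAGGTG was in 12 of the 39 (30.8%) and in 17.2% of the 32851 windows of that length that were searched. The GC box string was in 33.3% against 32.7%, TGGAAA in 12.8% against 18.6%, TGTGGT in 10.3% against 14%, TATAAA in 7.69% against 12.4% and CCGGAAG in 0 of 39 against 6.91%. A match is a string of letters, not a site shown to be used.

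None of the CD3 chains passed limma without the block, and Cd3d had the largest measured change of the 4. Cd3d, the delta chain, measured 1030.0 and 1098 in Tc1 and 1560.5 and 1548 in Tc9, so both Tc9 arrays stood clear of both Tc1 arrays. Its log2 change was 0.54 ± 0.13, or 1.45-fold (95% interval 1.18 to 1.79; limma adjusted p = 0.229, with the block 1.11e-13), with 0.59 and 0.49 in the pairs. Cd3g, the gamma chain, measured 2642 and 2591 in Tc1 and 2972 and 3311 in Tc9, again without overlap (0.26 ± 0.12; limma adjusted p = 0.996, with the block 1.31e-05; 0.17 and 0.35 in the pairs). Cd3e, the epsilon chain, which pairs with delta and with gamma, measured 5405 and 6179 in Tc1 and 5998 and 6915 in Tc9, and the groups overlapped (0.16 ± 0.12; limma adjusted p = 1.00, with the block 0.00176; 0.15 and 0.16 in the pairs). Without any 1 array the change of Cd3e lay between 0.049 and 0.26, the lowest without the Tc9 array numbered 2 and the highest without the Tc1 array numbered 2. Cd247, the zeta chain, which carries most of the receptor's activation motifs, measured 1458 and 1170 in Tc1 and 1523 and 1207 in Tc9, with the difference between numbers larger than that between cell types (0.05 ± 0.17, 95% interval -0.35 to 0.46; limma adjusted p = 1.00, with the block 0.748; 0.06 and 0.05 in the pairs). The change of Cd3d exceeded that of Cd247 by 0.53 and 0.44 in the pairs, and that of Cd3e by 0.44 and 0.33, differences set side by side after their values were seen and not tested.

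Both chains of the CD8 coreceptor were above the control limit on all 4 arrays. Cd8a measured 5305 and 4603 in Tc1 and 5271 and 4178 in Tc9, with overlap (-0.07 ± 0.15, 95% interval -0.42 to 0.27; limma adjusted p = 1.00, with the block 0.329; -0.01 and -0.14 in the pairs). Cd8b1, the beta chain that forms the CD8 alpha-beta heterodimer with Cd8a, measured 2870.3 and 3724 in Tc1 and 2447 and 3007 in Tc9. Its Tc9 signal was the lower in each pair, although the groups overlapped (-0.27 ± 0.17; limma adjusted p = 1.00, with the block 4.70e-06; -0.23 and -0.31 in the pairs). Its change was -0.077 without the Tc1 array numbered 2, -0.12 without the Tc9 array numbered 1, -0.42 without the Tc9 array numbered 2 and -0.45 without the Tc1 array numbered 1. The change of Cd8b1 lay below that of Cd8a by 0.22 and 0.17 in the pairs, likewise chosen after the values were seen and not tested. Cd4, the coreceptor of the other T cell lineage, was at 38.4 to 52.9 and under the control limit on all 4 arrays.

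Among the proximal kinases, Zap70, the kinase that binds the phosphorylated receptor chains, measured 1023 and 1134 in Tc1 and 1339 and 1339.9 in Tc9. The groups were apart by more than the gap between replicates (0.31 ± 0.13, 95% interval 0.0003 to 0.62; limma adjusted p = 0.944, with the block 0.000151; 0.38 and 0.24 in the pairs). Fyn, the Src-family kinase that acts beside Lck, measured 1309 and 1324 in Tc1 and 1586 and 1523 in Tc9, also without overlap (0.24; with the block adjusted p = 0.00363). Txk, a Tec-family kinase that can activate phospholipase C gamma, went the other way, at 315 and 337 in Tc1 and 235 and 272 in Tc9 (-0.34; with the block adjusted p = 0.0240), the lowest change of the list. The groups of the 3 measured kinases did not overlap, 2 higher (14% of all genes) and 1 lower in Tc9 (15.1%), but 0 of them were apart with the values as deposited or with median centring, and 0 passed limma without the block.

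The scaffold and most adaptors showed narrower differences than Plcg1 and Rasgrp1. Lat, the membrane scaffold, measured 2232 and 2424 in Tc1 and 2896 and 2722 in Tc9, without overlap (0.27 ± 0.12; limma adjusted p = 0.972, with the block 1.42e-05; 0.37 and 0.17 in the pairs). Themis, an adaptor that tunes receptor signals in thymocytes and T cells, measured 1020 and 1126 in Tc1 and 1227 and 1541 in Tc9, without overlap (0.36; with the block adjusted p = 7.32e-06). The other adaptors overlapped between the groups and changed sign between the pairs. Lcp2, which encodes SLP-76, measured 1341 ± 3.24 (SD, n = 2) in Tc1 and 1373 ± 165 in Tc9, a log2 change of 0.03. Grap2, which encodes the GADS adaptor that joins SLP-76 to LAT, measured 2120.0 ± 244 and 2071 ± 145 (-0.03). Grb2, the adaptor that brings SOS to LAT, measured 1337 ± 85.0 and 1398 ± 185 (0.06). Vav1, an exchange factor for RAC, measured 1252 ± 45.7 and 1255 ± 111 (0.0002, 95% interval -0.32 to 0.32). Sos1, the other RAS exchange factor of this step, measured 442 and 598 in Tc1 and 374 and 614 in Tc9 (-0.10, 95% interval -0.72 to 0.52), and followed the array number rather than the cell type. Of the 9 adaptors and effectors, 4 had groups that did not overlap, all higher in Tc9 (14% of all genes). With median centring Lat and Plcg1 stayed apart, and Grap2 was then apart with Tc9 lower. With the values as deposited or median centring the signs of Lcp2 and Vav1 turned, as did that of Nfatc1, each staying within 0.05 of 0.

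Downstream of the scaffold, Prkcq, which encodes protein kinase C theta, the isoform gathered at the T cell contact, measured 1736 and 2013 in Tc1 and 2327 and 2505 in Tc9. The groups did not overlap (0.37 ± 0.13; limma adjusted p = 0.707, with the block 7.02e-09; 0.42 and 0.31 in the pairs).

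Of the 3 NFAT factors, which calcineurin sends to the nucleus after calcium entry, Nfatc2 alone had groups that did not overlap. It was higher in Tc9, as were 14% of all genes by that rule. Nfatc2 measured 175 and 157 in Tc1 and 222 and 271 in Tc9 (0.52 ± 0.21; limma adjusted p = 0.852, with the block 0.000953; 0.32 and 0.73 in the pairs). On 2 of the 4 arrays it lay under the control limit, so the size of that difference is uncertain. Nfatc1, the factor whose own short form is induced by receptor signals, measured 1044 and 1107 in Tc1 and 986 and 1217 in Tc9 (0.03). Nfatc3, a further calcium-regulated member, measured 1320 and 1477 in Tc1 and 1032 and 1825 in Tc9, so the lowest and the highest value both came from Tc9 arrays (-0.02; -0.35 and 0.30 in the pairs).

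Among the 9 regulators Ptpn22 had the largest difference. The groups overlapped for 7 of the 9, as they did for 13828 of the 19505 genes. For 1 regulator both Tc9 arrays were higher (14% of all genes) and for 1 both were lower (15.1%). Ptpn22, a phosphatase that acts on Src-family kinases and ZAP70, measured 911 and 909 in Tc1 and 1189 and 1298 in Tc9, with Tc1 arrays nearly equal and Tc9 arrays well above them (0.44 ± 0.13, or 1.36-fold; limma adjusted p = 0.470, with the block 3.60e-08; 0.38 and 0.51 in the pairs). Cd5, an inhibitory coreceptor whose level follows receptor signal strength in thymocytes, measured 2669 and 2966 in Tc1 and 2350.1 and 2473 in Tc9, without overlap (-0.22; with the block adjusted p = 0.000586). Csk, the kinase that holds Src-family kinases inactive, measured 1687 ± 284 and 1916 ± 38.8 (0.19; with the block adjusted p = 0.0153), and Ubash3a, a suppressor of receptor signalling, 710.2 ± 146 and 844 ± 109 (0.25; with the block adjusted p = 0.0164), with a tie between a Tc1 and a Tc9 array in Csk and overlap in Ubash3a. Ptprc, the CD45 phosphatase that keeps Src-family kinases ready, measured 6385 ± 107 and 6668 ± 508 (0.06), and Ptpn6, the SHP-1 phosphatase, 2279 ± 63.3 and 2203 ± 58.2 (-0.05). The ubiquitin ligase Cblb measured 2432 and 3661 in Tc1 and 2170 and 3439 in Tc9 (-0.13), a spread set by the array number, and its relative Cbl measured 567 ± 105 and 608 ± 77.2 (0.11). Sla, an adaptor that lowers receptor levels, measured 1584 ± 255 and 1725 ± 155 (0.13).

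The costimulatory receptor Cd28, which binds CD80 and CD86, measured 3452 and 3292 in Tc1 and 3016 and 2909 in Tc9, both Tc9 values being lower (-0.19 ± 0.11; limma adjusted p = 1.00, with the block 0.00291; -0.19 and -0.18 in the pairs). Cd2, an adhesion receptor that lowers the threshold for activation, was at 318 and 346 in Tc1 and 252 and 282 in Tc9, with the same order (-0.30; with the block adjusted p = 0.0582). Icos, an inducible relative of CD28, was at 2185 and 2209 in Tc1 and 2375 and 2262 in Tc9, apart but by a small margin (0.08; with the block adjusted p = 0.480). The groups of these 3 genes did not overlap, 2 lower (15.1% of all genes) and 1 higher in Tc9 (14%), and with median centring Cd28 alone of them stayed apart.

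Across the 36 members 19 were higher in Tc9 in both pairs (30.1% of all genes), 9 were lower in both (32%) and 8 changed sign. Among the genes above the control limit on all arrays, 33.7% were higher in both pairs and 41.1% lower. Changes in the pairs correlated across the members with r = 0.786, a description over 36 genes that share the same 4 arrays. The same correlation was 0.668 over all genes and 0.837 over those above the control limit on all arrays, so the members' value was the lower of these last 2. For 17 of the 36 the log2 difference between the arrays numbered 2 and those numbered 1 was larger in size than that between Tc9 and Tc1. That held for 64.1% of all genes and 58.9% of those above the control limit on all arrays. Sos1 (0.56), Cblb (0.62), Rasgrp1 (0.63) and Nfatc3 (0.49) had the widest differences between numbers, with the arrays numbered 2 higher. What differed between the numbers, culture or array processing, cannot be told apart.

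**Figure D3:**
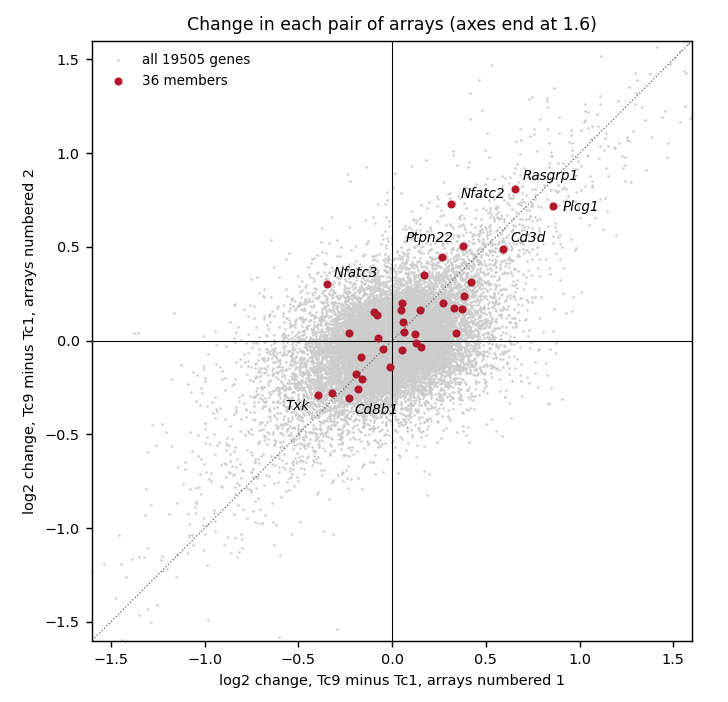
Log2 change, Tc9 minus Tc1, in the pair numbered 1 (horizontal) against the pair numbered 2 (vertical) for the 36 members (red) and all genes (grey); axes end at 1.6, and genes beyond are not drawn. Plcg1, Rasgrp1, Cd3d, Ptpn22 and Nfatc2 lie in the upper right, and Nfatc3 changes sign (-0.35 and 0.30).

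A wider list of 121 other genes of receptor signalling, 105 of them measured, was set beside the 36. By limma 1 of the 105 passed, higher in Tc9 (0.385% of all genes), and 0 as lower (0.179%). An unadjusted p under 0.05 was reached by 20 in the direction of Tc9 (2.94% of all genes) and 5 in the direction of Tc1 (2.34%). Of the 6354 genes above the control limit on all arrays, 342 and 267 reached it in these directions. The block passed 26 as higher (6.34% of all genes, 13.1% of those above the control limit) and 11 as lower (7.37% and 15.9%). The gene that passed was Lax1, a membrane adaptor related to LAT that dampens receptor signalling, at 294.5 and 329 in Tc1 and 901 and 805 in Tc9 (log2 change 1.41 ± 0.16, or 2.65-fold; limma adjusted p = 0.0156; 1.56 and 1.25 in the pairs). It was lost with the values as deposited, with median centring and without the intensity trend, under each of which 0 of the 105 passed.

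Further genes of the wider list are named here after their values were seen, and only some of them stood close to the threshold. Traf6, a ubiquitin ligase of the route to NF-kappaB, measured 651 and 658 in Tc1 and 1182 and 1317 in Tc9 (0.91; limma adjusted p = 0.0504). Ubash3b, the STS-1 phosphatase that acts on ZAP70, measured 671 and 527 in Tc1 and 1203 and 1271 in Tc9 (1.04; adjusted p = 0.0548 by limma), and its change exceeded that of its relative Ubash3a by 0.50 and 1.07 in the pairs. Pik3ip1, an inhibitor of phosphoinositide 3-kinase, measured 77.9 and 92.4 in Tc1 and 327 and 238 in Tc9 (1.55; limma adjusted p = 0.0548), with both Tc1 arrays under the control limit. Rasa3, a GTPase activator that turns RAS proteins off, measured 160.0 and 181 in Tc1 and 404 and 652 in Tc9, 1 of the 4 arrays being under the control limit (1.51; limma adjusted p = 0.0648). The sizes of the Pik3ip1 and Rasa3 changes are therefore uncertain. Sos2 measured 654 and 942 in Tc1 and 1218 and 1643 in Tc9 (0.84; limma adjusted p = 0.322), a change larger than that of Sos1 by 1.11 and 0.75 in the pairs. The lowest changes were those of Sh2d1a, the SAP adaptor of SLAM receptors, at 310 and 275 in Tc1 and 149 and 87.6 in Tc9, 2 of the 4 arrays being under the control limit, which leaves its size uncertain as well (-1.24; limma adjusted p = 0.188), and Tespa1, an adaptor of calcium signalling, at 819 and 1102 in Tc1 and 455 and 593 in Tc9 (-0.85; limma adjusted p = 0.244).

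By branch, 1 of 9 surface and other membrane proteins passed limma, and no chain of the T cell receptor itself was among those 9. In the other branches 0 of 19 kinases and adaptors and 0 of 19 genes of phosphoinositide 3-kinase, calcium and calcineurin passed. The same held for 0 of 18 RAS and MAP kinase genes, 0 of 13 genes of the NF-kappaB branch and 0 of 27 negative regulators. With the block, which passed 6.34% of all genes as higher and 7.37% as lower, 9 negative regulators were higher in Tc9 and 2 lower, 6 phosphoinositide 3-kinase and calcium genes were higher and 1 lower, and 5 RAS and MAP kinase genes were higher and 2 lower. Of the kinases and adaptors 2 were higher and 4 lower, of the surface and other membrane proteins 3 and 1, and of the NF-kappaB branch 1 and 1. Also named after their values were seen, the calcineurin subunit gene Ppp3ca measured 266 ± 4.28 and 180.2 ± 20.4 (-0.53; limma adjusted p = 0.756), and the diacylglycerol kinase gene Dgka, whose product removes the messenger that recruits RASGRP1, measured 2831 ± 287 and 4358 ± 531 (0.62; adjusted p = 0.196 by limma).

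**Figure D4:**
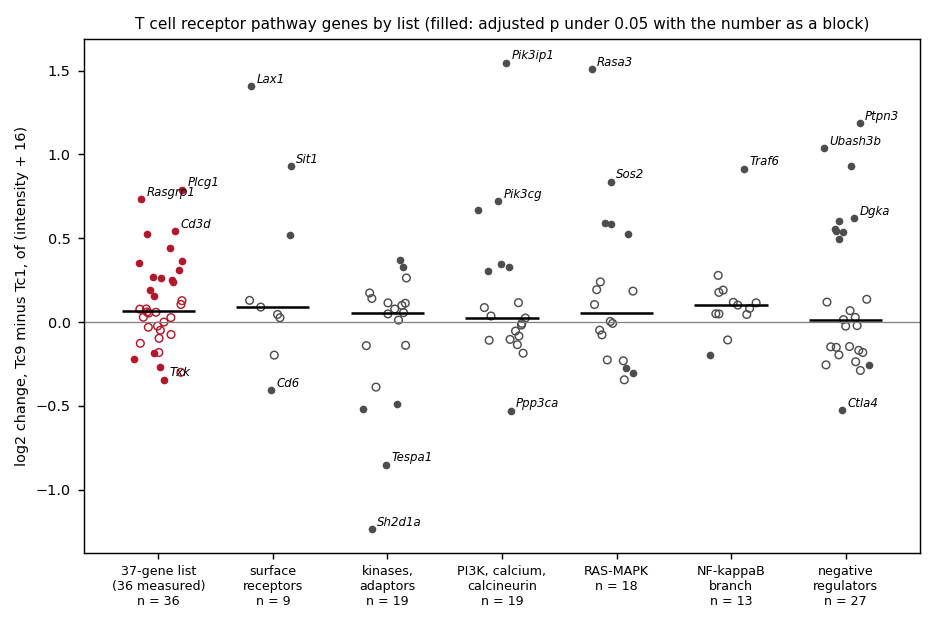
Log2 change, Tc9 minus Tc1, of the 36 members (red) and of 105 further pathway genes (grey) by branch, each point 1 gene and each bar the median. Filled points passed an adjusted p of 0.05 with the array number as a block. The members end at 0.79, and Lax1 (1.41) lies higher; the points of Rasa3 (1.51), Pik3ip1 (1.55) and Sh2d1a (-1.24) rest in part on arrays under the control limit, so their sizes and order are uncertain.

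Markers of other blood lineages were near background: 32 of 34 measured genes lay under the control limit on all 4 arrays. The exceptions were Cd79b, above it on 1 array, and Eomes, a factor of NK cells that CD8 T cells also express. The summed signal of the 6 NK markers was 1180 to 1187 in Tc1 and 354 to 358 in Tc9, and Eomes made up most of it (1051 and 1049.6 in Tc1 and 249 and 258 in Tc9), the other 5 lying under the control limit on all 4 arrays. Its part in the differences of the receptor genes was not tested. For the other lists the summed signals were 150 to 197 on the 4 arrays for CD4 T cells, 202 to 334 for B cells and 274 to 366 for myeloid cells. They were 219 to 267 for mast cells and basophils, 129 to 175 for platelets and erythroid cells and 124 to 162 for T cells of the gamma-delta lineage. The gamma-delta sum held 2 of 6 listed markers, Sox13 and Blk, and no receptor gene of that lineage. The platelet and erythroid sum held 3 of 7, Alas2, Pf4 and Ppbp, and no haemoglobin gene.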

How the data were processed

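RNA of 4 samples was measured on 4 Affymetrix expression arrays, biotin labelled per the labels' protocols. The authors deposited 1 intensity per probe set and array; the sources used here name no background correction, summarization, software or genome build, and that the intensities are linear was judged from their range. The number of arrays limits the precision. Of the probe sets, 6640 controls were left out and 22206 were quantile normalized; the platform annotation gave 19572 of them 1 gene symbol, 0 several, and 2634 are unnamed here. All 36 members' Entrez identifiers matched the RefSeq table, with 0 symbols changed. After adding 16, log2 values of 19505 genes were compared by limma 3.58.1 (R 4.3.3; intensity trend, 2 residual and 5.08 prior degrees of freedom), Tc9 minus Tc1, two-sided, with Benjamini-Hochberg adjustment over all genes and a threshold of 0.05. The control limit is the 95th percentile of 5222 negative control probe sets on that array in the deposited values, at 122.8 to 130.6 on arrays numbered 1 and 197 to 217.6 on those numbered 2. Samples were grouped by title. The fit was tested on simulated data. Alternatives were the number as a block, other scalings, pseudocounts of 1 and 64, a filter, other variance models, averaged probe sets and each array left out. The members and lists were chosen with earlier results of these data known. By rule, members at least 1.5-fold apart that passed a fit, and the receptor core, were given in full; other members got levels and a change. Some members' individual values are not reported here.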

Additional observations from a re-analysis of the deposited data

How the results depend on the processing

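The count of members past limma was 0 under the values as deposited, median centring, both other pseudocounts, the filter, both other variance models and averaged probe sets, 18 with the replicate number as a block, 5 with the block and no intensity trend (a setting added after the data were seen), and 0 to 1 without any 1 array. Same-numbered arrays deviated together (r = 0.729), but 2 pairs cannot show that the numbers pair the samples. Over all genes the count went from 110 to 2674 with the block, 1426 with the block and no trend, 16 as deposited, 52 with median centring, 56 without the trend and 184 to 277 without any 1 array; with 75 of the 110 higher and 35 lower in Tc9, against 1236 and 1438 with the block, 13 and 3 as deposited and 30 and 22 with median centring. Without 1 array a single residual degree of freedom is left, and the lone array of a group is assumed to vary like the others. For the wider list the count of 1 became 37 with the block, 27 with the block and no trend, 0 as deposited, with median centring or without the trend, 3 with a pseudocount of 1 or the filter, and 6 to 8 without any 1 array. Members whose groups did not overlap went from 17 to 1 as deposited and 9 with median centring; those 1.5-fold apart in both pairs stayed at 2 under the 6 alternatives run for them. The median log2 change of the members lay between 0.065 and 0.16 without any 1 array. Cd8a, at -0.07, turned to 0.025 without the Tc1 array numbered 1 and 0.095 without the Tc9 array numbered 2, within a range of -0.24 to 0.095. Cd247, at 0.05, turned to -0.10 without the Tc1 array numbered 2 and -0.11 without the Tc9 array numbered 1, within -0.11 to 0.23. In the pairs the changes kept 1 sign, at -0.01 and -0.14 for Cd8a and 0.06 and 0.05 for Cd247. The log2 difference between the arrays numbered 2 and those numbered 1 was -0.27 for Cd8a and -0.32 for Cd247. The fits without 1 array had no term for the number, so their values mix that difference with the one between cell types. What lay behind the difference between the numbers was not tested.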
